A study of Mus musculus with 39 samples.

Results

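Cadherins are calcium-dependent adhesion proteins that hold neighbouring cells together. Myoblasts, the precursors of muscle fibres, line up through them before they fuse into multinucleated myotubes. The genes followed here are 5 members of the family that are named in myoblasts, Cdh2, Cdh4, Cdh11, Cdh13 and Cdh15. They were chosen by name from the 29980 genes of a count table, with earlier results of these data known. Of these 5 genes, 4 had counts and passed the filter on low counts. Cdh4 had none.

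The classical cadherins Cdh15 (M-cadherin), Cdh2 (N-cadherin) and Cdh4 (R-cadherin) bind catenins through their cytoplasmic tails, and the catenins link them to actin. Cdh11 (OB-cadherin) belongs to the type II group, which also binds catenins and is best known from mesenchymal cells. Cdh13 (T-cadherin) has no cytoplasmic tail: it is held in the membrane by a lipid anchor and also binds adiponectin. M-cadherin is a usual marker of satellite cells and myoblasts, and N-cadherin is present in both myoblasts and myotubes.

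The cells were C2C12, a mouse myoblast line. FlncKO cells (KO) carry a CRISPR/Cas9 edit aimed at exon 1 of Flnc, the gene of filamin C, an actin crosslinker of muscle, and wild-type cells (WT) do not. RNA was taken from growing cells in fetal bovine serum (day 0) and on days 1, 2, 4 and 6 in medium with 2% horse serum. The 10 groups of line and day had 4 libraries each, with KO day 2 at 3 as the exception. The KO libraries all come from 1 named line, so the edit and any other difference between the lines cannot be told apart. The labels do not say whether that line is 1 clone, nor whether replicates are separate cultures, so p-values measure only the spread between these libraries. In these bulk samples, fewer cells of a type and less RNA per cell cannot be told apart either.

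Library totals ranged from 6838281 to 28902526 counts, and levels are given as CPM, the usual scaling of counts by the total of their library. Flnc lay between 16.0 and 158.9 CPM in KO libraries and between 419 and 2207 CPM in WT libraries, with every KO library below every WT library of its day. Myogenic markers were present in both lines: Myod1, Myf5 and Des had counts in 39 of 39 libraries. Replicate 3 of KO day 1 and replicate 4 of WT day 0 lay apart: their log2 CPM correlated with that of the other libraries of their group at 0.929 and 0.955 on average. Replicate numbers recur across groups, and libraries of the same number deviated together in KO against WT on days 0, 1, 2 and 4. A gene was called where edgeR's quasi-likelihood test gave a Benjamini-Hochberg adjusted p under 0.05 over all 13780 genes tested. Log2 differences are those of the edgeR fit, with the standard error (SE) of log2 CPM of the groups compared.

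M-cadherin was the most abundant of the 5 in every group and was lower in the KO line. The gene lies on chromosome 8 (Cdh15, ENSMUSG00000031962, chr8:122847966-122867397, plus strand, GRCm38). Its promoter, from 250 bases before to 50 bases after the RefSeq start, is shown because Cdh15 carries most of the cadherin RNA of these cells and its level rose after serum withdrawal. Capitals mark each CANNTG, the general E-box pattern, which is wider than the sites to which MyoD and myogenin bind (RefSeq, GRCm38.p6, chr8:122848124-122848423, plus strand). The whole window lies inside the gene positions above, which are those of GENCODE and begin at 122847966. RefSeq and GENCODE thus place the start differently.

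Cdh15: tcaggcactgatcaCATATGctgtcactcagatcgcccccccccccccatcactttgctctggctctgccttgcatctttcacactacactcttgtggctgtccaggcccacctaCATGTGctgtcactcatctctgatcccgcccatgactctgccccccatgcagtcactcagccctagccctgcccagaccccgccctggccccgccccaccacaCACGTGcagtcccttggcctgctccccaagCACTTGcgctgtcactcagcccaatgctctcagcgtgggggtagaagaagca

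CANNTG reads the same on both strands, and the window holds 4, with CACGTG beginning 32 bases and CACTTG 2 bases before the RefSeq start. Of 32851 RefSeq promoters of the same length, 72.3% hold at least 1 CANNTG and 6.49% hold at least 4. A match describes the letters and not binding.

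On day 0 Cdh15 had 270.1, 300.8, 239 and 269 CPM in the KO libraries, against 362, 402, 670.1 and 595 CPM in the WT libraries. Every KO library lay below every WT library, and the log2 difference was -0.97 ± 0.23 (SE, n = 4 each, adjusted p = 0.0043 in edgeR). On day 6 it had 378, 326, 377 and 330.3 CPM in KO, against 499, 658, 645 and 517 CPM in WT. These groups were also separate, with a log2 difference of -0.79 ± 0.12 (adjusted p = 0.0114 in edgeR). The lower M-cadherin level of the KO line was thus called in growing cells and again after 6 days.

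On the days between, Cdh15 averaged 535 ± 145, 614 ± 153 and 445 ± 84.9 CPM in KO on days 1, 2 and 4 (SD, n = 4, 3 and 4), against 866 ± 195, 955 ± 207 and 751 ± 219 CPM in WT (n = 4 each). The log2 difference was -0.69 ± 0.25 on day 1 (adjusted p = 0.0393), -0.69 ± 0.28 on day 2 (0.0621) and -0.84 ± 0.24 on day 4 (0.0074, all in edgeR). Single KO and WT libraries overlapped on days 1 and 4 and not on day 2. The day 1 call did not hold when the replicates of KO numbered 3, 4 or 5, or of WT numbered 1, 4 or 5, were left out singly (highest adjusted p 0.149). It was also lost without the pair of libraries that stood apart (-0.59, adjusted p = 0.0999 in edgeR). The day 4 call was lost without WT day 4 replicate 3 (-0.61, adjusted p = 0.0613 in edgeR). With replicate number as a block within the day, day 2 was called (-0.78, adjusted p = 0.0140 in edgeR), and with a block shared over all groups it was not (-0.69, adjusted p = 0.0559 in edgeR). Day 2 was also called without WT replicate 4 or 5 of that day (adjusted p = 0.0496 and 0.0495) or without the pair that stood apart (0.0383, all in edgeR).

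**Figure D1:**
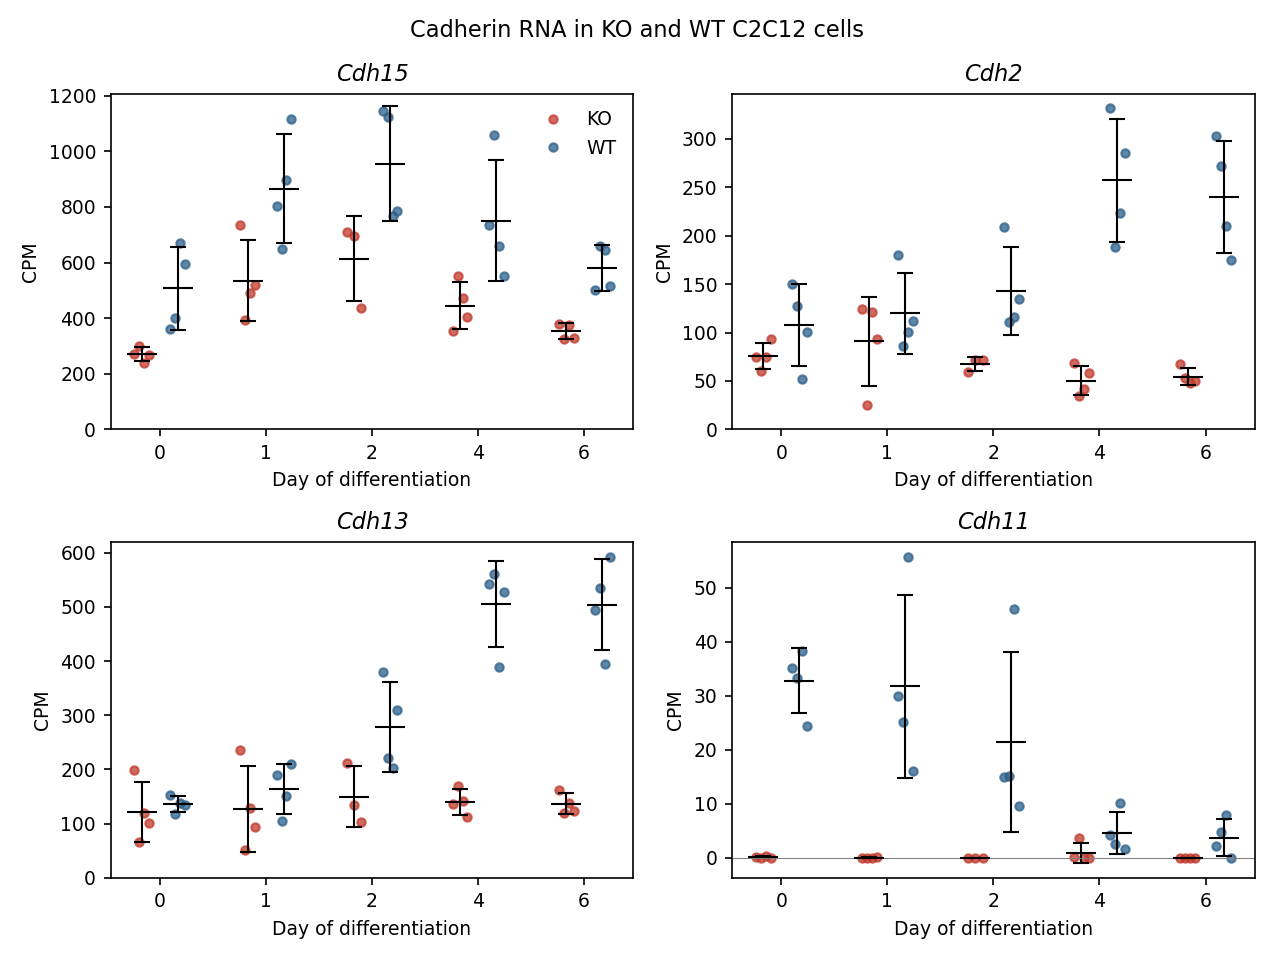
Level of each of the 4 detected cadherins in CPM (vertical axes, linear) by day of differentiation (horizontal axes). Points are libraries, KO left of WT on each day, and black marks are the mean with its SD (n = 4, 3 for KO day 2). Cdh15 rises and then declines in both lines; in WT, Cdh2 and Cdh13 reach 240 and 504 CPM by day 6, and Cdh11 declines to 3.77 CPM.

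N-cadherin was not called higher in KO cells on any day after day 0, while in WT cells it rose 2.27-fold by day 6. The gene (Cdh2, ENSMUSG00000024304) lies on chromosome 18 from 16588877 to 16809246, minus strand. On day 0 it had 75.01, 59.9, 74.6 and 93.4 CPM in KO, against 151, 127, 52.0 and 100.9 CPM in WT. The groups overlapped because WT replicate 4, which stood apart, was the lowest of all 8. The log2 difference was -0.53 ± 0.36 (adjusted p = 0.261 in edgeR), and without the libraries that stood apart it was -0.74 (adjusted p = 0.0234 in edgeR).

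On day 4 Cdh2 had 68.3, 34.0, 41.7 and 57.7 CPM in KO, against 332, 188, 223 and 285 CPM in WT. On day 6 the libraries held 67.0, 52.9, 48.2 and 49.6 CPM in KO, against 303, 272, 210.1 and 175 CPM in WT. On both days the highest KO library was below the lowest WT library. The log2 difference was -2.44 ± 0.29 on day 4 (adjusted p = 7.2e-07) and -2.21 ± 0.21 on day 6 (2.9e-06, both in edgeR), a level 5.42-fold and 4.64-fold lower in KO.

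A lower level in KO was also called on day 2, when Cdh2 had 59.2, 71.9 and 71.4 CPM in KO, against 209, 111, 116 and 135 CPM in WT. No library overlapped, and the log2 difference was -1.13 ± 0.23 (adjusted p = 0.0200 in edgeR). That call was lost without KO replicate 1, 3 or 5 or without WT replicate 1 of that day, with adjusted p up to 0.0847 in edgeR. The change from day 0 to day 2 was not called different between the lines (-0.60 ± 0.43, adjusted p = 0.689 in edgeR). On day 1 the difference was -0.42 ± 0.60 (adjusted p = 0.403 in edgeR), and KO replicate 3, one of the libraries that stood apart, was the lowest at 24.7 CPM.

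R-cadherin was not detected. Cdh4 (ENSMUSG00000000305, chr2:179442431-179899373, plus strand) had 0 counts in all 39 libraries. A count of 0 allows up to 0.104 to 0.439 CPM, depending on the library (3 counts of its total). That limit, like the other counting intervals here, covers counting error only.

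OB-cadherin was at or near 0 in the KO line, in growing cells as well, in all libraries other than replicate 3 of day 4. Cdh11 (ENSMUSG00000031673) lies on chr8:102632095-102785642, minus strand. On day 0 it had 0.142, 0, 0.421 and 0.0410 CPM in KO, against 35.2, 33.3, 38.4 and 24.4 CPM in WT. All WT libraries were far above all KO libraries, with 15 counts over the KO group and 3472 over the WT group. The pooled WT level was 208 times the KO level (95% interval 126 to 373 from counting alone). KO replicate 4 held 10 of the 15 KO counts, and without it the ratio was 471 (202 to 1452).

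On day 1, 3 counts over the KO libraries stood against 2546 over the WT libraries, a ratio of 744 (254 to 3611). On day 2 all 3 KO libraries were at 0, against 15.0, 15.1, 46.1 and 9.53 CPM in WT, and no library overlapped. The pooled level was at least 435-fold lower in KO, taking 3 counts over the group as the floor. WT replicate 4 held 995 of the 1920 WT counts, and the bound was 276 without it, 271 without KO replicate 1 and 278 without KO replicate 3.

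On day 6 all 4 KO libraries were again at 0, against 2.24, 4.87, 7.99 and 0 CPM in WT. WT replicate 5 was at 0 too, so the groups overlapped. The pooled level was at least 61.9-fold lower in KO. That bound was 37.2 without WT replicate 4, which held 126 of the 208 WT counts, and 39.9 without KO replicate 4. If both mates of a read pair were counted, the bounds over all libraries of days 2 and 6 are 217 and 30.9.

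In edgeR, Cdh11 was called lower in KO on days 0, 1, 2, 4 and 6, with adjusted p of 2.1e-05, 8.8e-06, 6.2e-05, 0.0454 and 0.0013. The fitted fold changes of so low a gene depend on the prior count, and those of KO against WT are not given. Fitted Cdh11 differences printed further below that involve KO groups carry the same limit. They rest on 15 KO counts on day 0, 38 on day 4 and 0 on day 6, and their size should not be relied on. On day 4 it had 0.156, 3.64, 0 and 0 CPM in KO, against 4.27, 2.61, 10.2 and 1.62 CPM in WT. KO day 4 replicate 3 held 36 of the 38 KO counts and overlapped the WT libraries. The WT level was 8.06 times the KO level with it (5.75 to 11.6) and 128 times without it (35.2 to 1064). Without WT replicate 4 it was 4.56 times the KO level (3.16 to 6.73). The day 4 call was lost without KO replicate 1, 4 or 5 or WT replicate 1 or 4, with adjusted p up to 0.189 in edgeR.

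KO day 4 replicate 3 was compared with its group for the genes most like Cdh11 over the 10 groups. Gap43 had 0, 3.04, 0 and 0 CPM and Bgn had 2.18, 62.6, 4.91 and 10.2 CPM in the KO libraries of day 4, replicate 3 being the highest in both. In WT they had 1.99 to 6.70 and 25.4 to 150.9 CPM. Flnc in the same KO library was 116 CPM, the lowest of its group, while the lowest WT library held 1105 CPM. Their part in the Cdh11 value was not tested.

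T-cadherin was not called between the lines in growth, and by day 4 it was lower in KO while it rose in WT cells. Cdh13 (ENSMUSG00000031841) lies on chr8:118283733-119324921, plus strand. On day 0 it had 198, 66.5, 120 and 100.9 CPM in KO, against 153, 117, 138 and 134 CPM in WT, and the KO libraries lay on both sides of the WT libraries. The log2 difference was -0.21 ± 0.34 (adjusted p = 0.683 in edgeR).

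On day 4 Cdh13 had 137, 169, 141 and 112 CPM in KO, against 542, 562, 389 and 528 CPM in WT. On day 6 it had 163, 120, 139 and 124 CPM in KO, against 495, 535, 394 and 593 CPM in WT. On both days the groups were wholly separate. The log2 difference was -1.94 ± 0.17 on day 4 (adjusted p = 1.6e-05) and -1.97 ± 0.16 on day 6 (1.2e-05, both in edgeR), 3.83-fold and 3.91-fold lower in KO.

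On day 2 the values were 212, 134 and 103 CPM in KO, against 380.3, 221, 202 and 310.4 CPM in WT, where the highest KO library passed the lowest WT library. The log2 difference of -0.94 ± 0.37 just missed the threshold (adjusted p = 0.0509 in edgeR). With replicate number as a block it was called, at -1.09 with the block within the day (adjusted p = 0.0040) and -0.98 with the block shared over all groups (0.0147, both in edgeR). It was also called without KO replicate 1 or WT replicate 3 or 4 of that day (adjusted p = 0.0203, 0.0482 and 0.0388) or without the pair that stood apart (0.0243, all in edgeR). On day 1 the difference was -0.37 ± 0.51 (adjusted p = 0.459 in edgeR). It ranged from -0.85 to -0.11 with libraries left out, and was called without KO day 1 replicate 1 (-0.85, adjusted p = 0.0418 in edgeR).

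Counted together, 2, 2, 2, 4 and 4 of the 4 tested cadherins were lower in KO on days 0, 1, 2, 4 and 6, where 9.09%, 9.93%, 10.3%, 14.2% and 14.4% of all genes tested were lower. None was called higher on any day, against 6.46%, 8.1%, 7.64%, 13.3% and 14.5% of all genes. The count on day 2 was 4 with replicate number as a block within the day and 3 with a block shared over all groups. The members called were Cdh11 and Cdh15 on days 0 and 1, Cdh2 and Cdh11 on day 2, and Cdh2, Cdh11, Cdh13 and Cdh15 on days 4 and 6. With so few genes, chosen with earlier results of these data known, these counts describe the members only. Cdh11 passed the filter on low counts through its WT libraries, with 15, 3, 0, 38 and 0 counts over the KO groups of these days. It could hardly be called higher in KO, so its calls add no support to the counts.

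**Figure D2:**
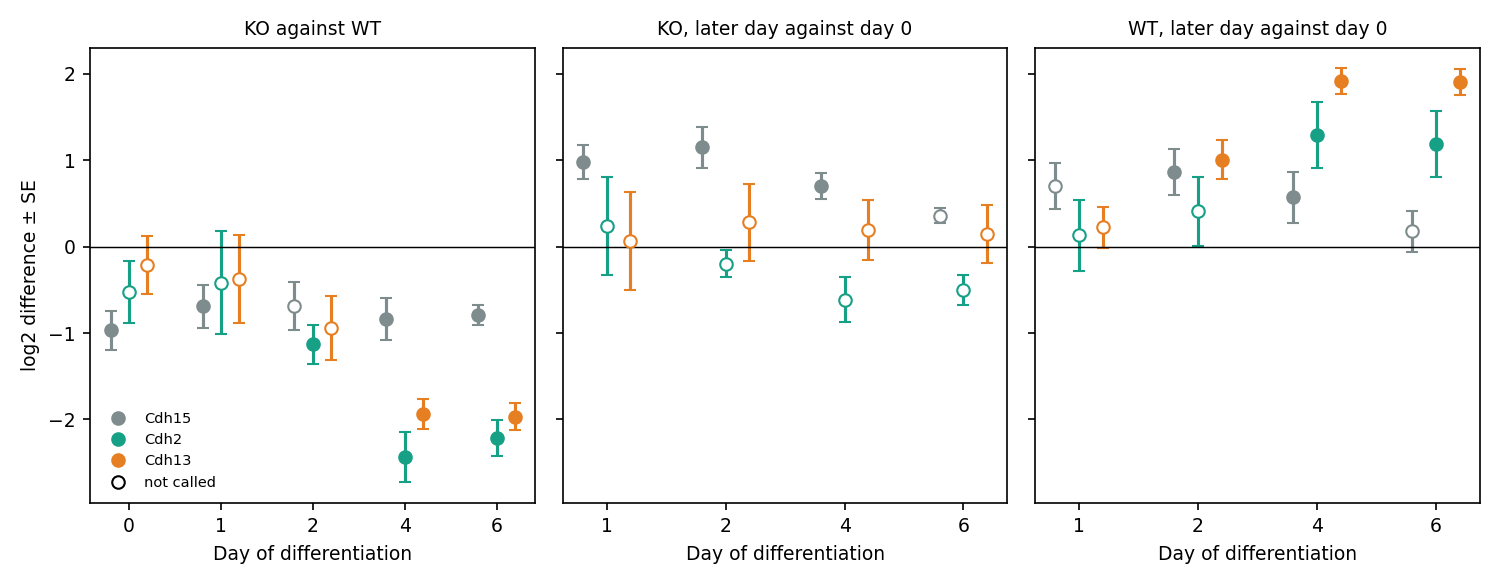
Log2 difference (vertical axis, with SE) of Cdh15, Cdh2 and Cdh13 for KO against WT (left) and for each later day against day 0 in KO (middle) and WT (right), by day (horizontal axes). Filled points were called in edgeR and open points were not; on day 6, Cdh2 and Cdh13 are at -2.21 and -1.97 in KO against WT, and at 1.18 and 1.90 in WT against its own day 0.

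Within each line, days were compared with day 0 to see which cadherins rose and which fell. In KO cells Cdh15 was the only member called: it rose on day 1 (log2 difference 0.98 ± 0.20, adjusted p = 0.0094), day 2 (1.15 ± 0.24, 0.0010) and day 4 (0.70 ± 0.15, 0.0197, all in edgeR). On day 6 it was 0.36 ± 0.09 above day 0 (adjusted p = 0.223 in edgeR). So 1, 1, 1 and 0 of 4 members were higher on days 1, 2, 4 and 6, where 4.18%, 12.7%, 17.9% and 20.5% of all genes were higher. No member was called lower in KO, against 3.81%, 13.9%, 19.6% and 23.1% of all genes. Cdh11 began at 15 counts over the KO libraries of day 0 and could hardly be called lower.

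The rise of Cdh15 on day 1 was lost without KO day 1 replicate 1 (adjusted p = 0.0633), and that on day 4 without KO day 0 replicate 4 or KO day 4 replicate 3 or 4 (up to 0.0654, all in edgeR). The log2 difference of Cdh2 from its day 0 level was -0.61 ± 0.26 on day 4 and -0.50 ± 0.17 on day 6, neither called in edgeR (adjusted p = 0.123 and 0.197). Leaving out KO day 1 replicate 3 and WT day 0 replicate 4 together, the day 4 value was called (-0.60, adjusted p = 0.0326 in edgeR). Cdh13 in KO was 0.15 ± 0.34 above day 0 on day 6 (adjusted p = 0.724 in edgeR).

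In WT cells 3 members rose and 1 fell. Cdh13 rose from day 2 on, with log2 differences of 1.01 ± 0.23, 1.92 ± 0.15 and 1.90 ± 0.15 on days 2, 4 and 6 (adjusted p = 0.0149, 8.1e-06 and 7.0e-06 in edgeR). Cdh2 rose by 1.30 ± 0.38 on day 4 and 1.18 ± 0.38 on day 6 (adjusted p = 0.0011 and 0.0022 in edgeR). Cdh15 rose by 0.87 ± 0.27 on day 2 (adjusted p = 0.0065 in edgeR) and was back at 0.18 ± 0.24 on day 6 (0.555). Cdh11 fell, with log2 differences of -2.79 ± 0.57 on day 4 and -3.09 ± 1.41 on day 6 (adjusted p = 0.0094 and 0.0045 in edgeR).

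The counts in WT were thus 0, 2, 3 and 2 of 4 members higher on days 1, 2, 4 and 6, against 2.32%, 11.9%, 19.5% and 21.7% of all genes, and 0, 0, 1 and 1 lower, against 1.87%, 13.6%, 24.3% and 27.8%. The WT rise of Cdh15 on day 4 (0.57 ± 0.29) lay at the threshold (adjusted p = 0.0497 in edgeR), and was lost without WT day 0 replicate 1, 3 or 5 or WT day 4 replicate 1 or 3 (up to 0.216). The day 2 rise of Cdh13 was lost without WT day 0 replicate 3 or WT day 2 replicate 1 (up to 0.0690). On day 1 Cdh15 was 0.70 ± 0.27 above day 0 in WT (adjusted p = 0.0852 in edgeR), 0.91 (0.0268) without the libraries that stood apart, and 0.90 (0.0329) without WT day 0 replicate 4 alone.

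Whether the change since day 0 differed between the lines was tested directly. For Cdh2 the change in KO minus the change in WT was -1.91 ± 0.46 on day 4 (adjusted p = 0.0053) and -1.69 ± 0.42 on day 6 (0.0113, both in edgeR). For Cdh13 it was -1.73 ± 0.38 on day 4 (0.0108) and -1.76 ± 0.37 on day 6 (0.0072, both in edgeR). The rise of both cadherins in WT therefore exceeded the change in KO by more than the spread between libraries. For Cdh15 the same difference lay between 0.13 and 0.28 on the 4 days, and over the 4 days together its adjusted p was 1 in edgeR.

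Over the 4 days together, Cdh2 (adjusted p = 0.0020), Cdh13 (0.0061) and Cdh11 (0.0254) were called in edgeR, 3 of 4 members against 7.74% of all genes. For single days, 0, 0, 3 and 2 members were called on days 1, 2, 4 and 6, against 0%, 0.544%, 7.66% and 9.95% of all genes. The third member on day 4 was Cdh11 (5.10 ± 1.43, adjusted p = 0.0308 in edgeR), whose value rests on 1 library. Without KO day 4 replicate 3 it was 0.95 (adjusted p = 0.881), and the test over the 4 days gave 0.848 (both in edgeR). That day 4 call was also lost without KO day 0 replicate 1, 3 or 5 or WT day 4 replicate 3 or 5, and the joint one without WT day 4 replicate 1, 3 or 5.

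To compare the members with each other, counts were divided by the exon length of each gene and expressed as a share of the summed cadherin signal of the library. Cdh15 held the largest share in all 10 groups. In KO it had 80.4% ± 5.04, 88.5% ± 4.02, 89.5% ± 1.498, 87.7% ± 2.49 and 85.2% ± 1.16 on days 0, 1, 2, 4 and 6 (SD, n = 4, 3 on day 2). In WT it had 83.2% ± 6.52, 88.9% ± 2.46, 86.6% ± 2.91, 74.1% ± 6.15 and 70.2% ± 4.69 (n = 4 each). In these group means there was no change of the leading member on any day, with any library left out, or with the longest transcript as length or no division by length. Without division by length, Cdh13 led in a single library, WT day 6 replicate 5, at 593 CPM against 517 CPM of Cdh15.

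The shares below it differed between the lines late in the course, while their order on day 6 was the same, Cdh13 before Cdh2 and Cdh2 before Cdh11. Cdh13 had 9.49% ± 0.63 of the signal in KO on day 6, with a range over libraries of 9.08% to 10.4%, and 17.9% ± 3.82 in WT, with a range of 13.5% to 22.6%. Cdh2 had 5.29% ± 0.65 in KO on day 6 (4.45% to 5.97%) and 11.8% ± 3.00 in WT (9.27% to 16.0%). For both, no KO library reached the lowest WT library. On day 0 the shares of both overlapped between the lines: Cdh13 had 5.59% to 16.0% in KO and 5.37% to 9.24% in WT, and Cdh2 had 7.02% to 11.2% in KO and 2.81% to 12.6% in WT.

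**Figure D3:**
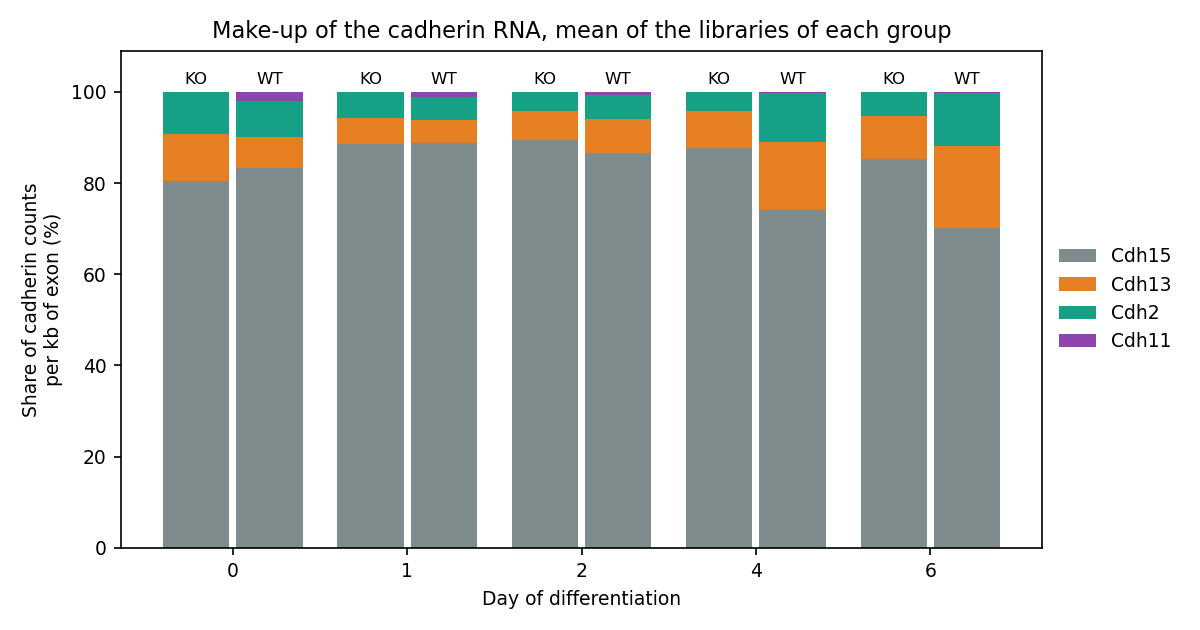
Share of each cadherin (vertical axis, percent of cadherin counts per kb of exon, mean of the libraries of a group) by day (horizontal axis), with the KO bar left of the WT bar. Cdh15 is the largest part of every bar; on day 6 Cdh13 and Cdh2 take 9.49% and 5.29% in KO and 17.9% and 11.8% in WT, and Cdh11 is visible in WT in the early days.

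Per length, Cdh15 was 16.3 ± 2.31 times as abundant as Cdh2 in KO on day 6 (14.0 to 19.4) and 6.27 ± 1.61 times in WT (4.09 to 7.62). By exon length, Cdh13 and Cdh2 were close neighbours in the order: on day 0 their ratio ran from 0.776 to 1.90 in KO and from 0.662 to 1.91 in WT. In both lines Cdh13 exceeded Cdh2 in every library of days 2, 4 and 6, with ratios of 1.63 to 2.06 in KO and 1.17 to 2.44 in WT on day 6. Their closeness and order on day 0 depend on the length used. By exon length, Cdh2 had a mean share of 7.91% and Cdh13 of 6.77% in WT on day 0. With the longest transcript as length, Cdh2 had 11.1% and Cdh13 14.2% in WT on day 0, and 12.5% and 20.8% in KO. Cdh11 reached at most 2.68% of the signal in any library of WT day 0 and 0.0506% in any library of KO day 0.

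The summed cadherin signal was lower on average in KO on every day. It averaged 103 ± 7.01, 187 ± 55.8, 211 ± 50.5, 156 ± 26.0 and 127 ± 10.8 CPM per kb in KO on days 0, 1, 2, 4 and 6, and 185 ± 40.7, 299 ± 63.7, 339 ± 68.9, 308 ± 66.7 and 253 ± 24.0 CPM per kb in WT. Both lines had their highest mean on day 2. On day 1 the libraries overlapped, at 128 to 263 CPM per kb in KO and 222 to 378 in WT. Cdh15 held most of the sum in every group, so the sum largely follows Cdh15, and no test was made.

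Members were also set against the stage of differentiation, since myotube markers differed between the lines. The summed level of Myog, Mymk, Ckm, Myh3 and Acta1 was 2735 to 5565 CPM in KO on day 6 and 13216 to 15831 CPM in WT on day 6, while WT on day 2 had 2967 to 5558 CPM. At that similar marker level Cdh2 had 48.2 to 67.0 CPM in KO on day 6 and 111 to 209 CPM in WT on day 2, and Cdh13 had 120 to 163 CPM and 202 to 380.3 CPM in the same groups. Neither pair of ranges overlapped. These days were set side by side after the marker values were known and no test was made.

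Fibroblast markers also moved with line and day. Pdgfra, Dcn, Lum, Pi16 and Tcf21 summed to 21.3 to 73.6 CPM in KO on day 6 and 118 to 543 CPM in WT. Over all libraries Dcn held 70079 counts and reached 542 CPM, and Pdgfra held 13473 counts and reached 63.3 CPM. Tcf21 was at 0 in every library. On day 0 the sums were 16.4 to 47.6 CPM in KO and 18.9 to 45.6 CPM in WT, when Cdh11 was already near 0 in KO. Immune markers (Ptprc, Cd68 and Csf1r) summed to 0.708 to 2.20 CPM in KO and 5.26 to 7.62 CPM in WT on day 0, when Cdh11 and Cdh15 were already lower in KO, and these ranges did not overlap. On day 6 they summed to 1.09 to 2.34 CPM in KO and 0.497 to 4.31 CPM in WT. Cd68 reached 7.48 CPM, and Ptprc, the defining marker of blood cells, at most 0.246 CPM. Endothelial markers summed to 0 to 0.169 CPM in KO and 0.447 to 1.30 CPM in WT on day 0, 1.30 CPM being the highest of any library, and Tie1 was at 0 throughout. The part of other cells in the cadherin levels was not tested.

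Among the catenins, which tie cadherins to actin, the genes of beta-catenin and p120-catenin were higher in KO on day 6, when Cdh2, Cdh11, Cdh13 and Cdh15 were lower. Of the 10 catenins and junction linkers listed, 6 were tested: 0 were higher and 3 lower in KO on day 0 (against 6.46% and 9.09% of all genes), and 2 were higher and 1 lower on day 6 (against 14.5% and 14.4%). Their median log2 difference was -0.42 on day 0 and -0.23 on day 6, and that of all genes -0.01 and 0.02. Ctnnb1 encodes beta-catenin, which binds the cadherin tail and also acts in Wnt signalling. It averaged 906 ± 51.4 CPM in KO and 394 ± 73.8 CPM in WT on day 6, a log2 difference of 1.13 ± 0.15 (adjusted p = 4.5e-05 in edgeR). On day 0 it averaged 581 ± 118 CPM in KO and 696 ± 93.0 CPM in WT (-0.30 ± 0.17, adjusted p = 0.320 in edgeR).

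Ctnnd1, the gene of p120-catenin, which keeps cadherins at the surface, was 1.04 ± 0.17 higher in KO on day 6 on the log2 scale (114 ± 9.67 CPM in KO, 52.6 ± 11.8 CPM in WT, adjusted p = 3.5e-05 in edgeR). The change since day 0 differed between the lines for both, by 1.43 ± 0.23 for Ctnnb1 (adjusted p = 7.6e-04) and 1.19 ± 0.24 for Ctnnd1 (0.0018, both in edgeR). Jup (plakoglobin), a close relative of beta-catenin, was lower in KO on day 6 (-0.90 ± 0.20, adjusted p = 0.0216 in edgeR). Ctnna1, the alpha-catenin that binds actin, and Vcl and Pkp4 were lower in KO on day 0 (log2 differences -0.54, -0.73 and -0.91), with adjusted p of 0.0144, 0.0456 and 0.0210 in edgeR. Calls were lost without single libraries: that of Jup without replicate 3 or 4 of KO or 3 or 5 of WT (adjusted p up to 0.0706), Vcl without 3 or 5 of KO or 1, 3 or 5 of WT (0.181), Pkp4 without 3 or 4 of KO or 3 or 5 of WT (0.0795), and Ctnna1 without 3 of KO (0.0591, all in edgeR).

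**Figure D4:**
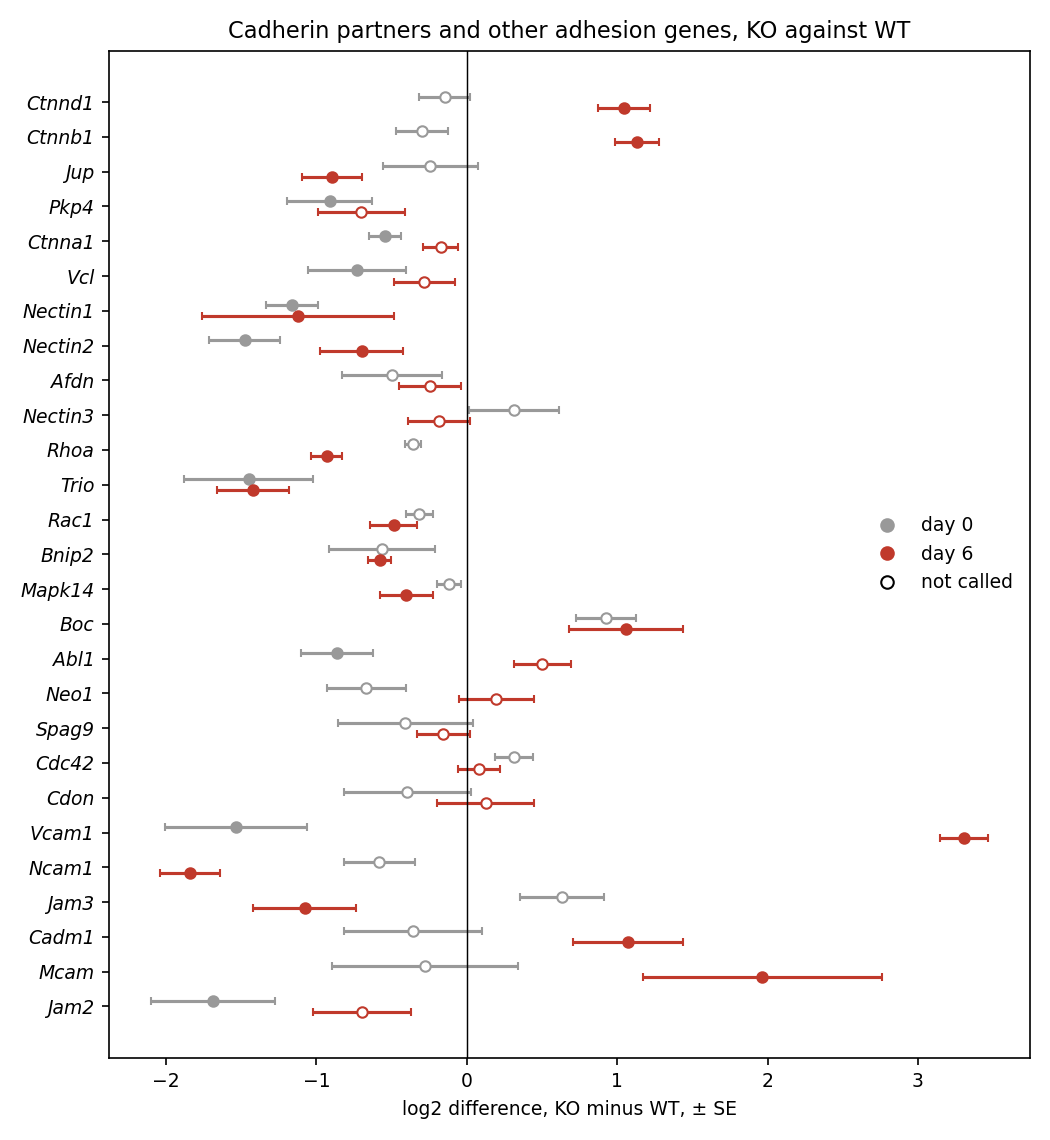
Log2 difference KO minus WT (horizontal axis, with SE) of all tested catenins and linkers, nectins, co-receptors and signalling genes, and other adhesion molecules (vertical axis) on day 0 (grey) and day 6 (red). Filled points were called in edgeR; Ctnnb1 and Ctnnd1 lie at 1.13 and 1.04 on day 6, and Vcam1 at -1.53 on day 0 and 3.31 on day 6.

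Nectins are immunoglobulin-type adhesion proteins that start junctions where cadherins then gather. Of 4 tested genes of the nectins and afadin, 2 were lower in KO on day 0 and 2 on day 6, and none was higher. Over all genes, 9.09% and 14.4% were lower on these days, and 6.46% and 14.5% were higher. Nectin2 was lower in KO on both days, at -1.48 ± 0.24 on day 0 and -0.70 ± 0.28 on day 6 (adjusted p = 3.2e-05 and 0.0270 in edgeR). Nectin1 was at -1.16 ± 0.17 and -1.12 ± 0.64 (0.0219 and 0.0245 in edgeR), at 2.702 ± 1.66 CPM in KO and 5.56 ± 3.02 CPM in WT on day 6. The median over the 4 genes was -0.83 on day 0 and -0.47 on day 6. Nectin1 lost its call on day 0 without replicate 4 or 5 of KO or 5 of WT (adjusted p up to 0.0688), and on day 6 without 3 or 5 of KO or 1 or 3 of WT (0.170). Nectin2 lost it on day 6 without 3 or 4 of KO or 4 or 5 of WT (0.101, all in edgeR).

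Among 11 co-receptors and signalling genes downstream of cadherins, 0 were higher and 2 lower in KO on day 0 (median -0.40), and 1 was higher and 5 lower on day 6 (median -0.16). The shares of all genes higher and lower were 6.46% and 9.09% on day 0, and 14.5% and 14.4% on day 6. Trio, an exchange factor that activates Rac1 and RhoA, was lower on both days: -1.45 ± 0.43 on day 0 and -1.42 ± 0.24 on day 6 (adjusted p = 0.0042 and 0.0025 in edgeR). Rhoa (-0.93 ± 0.10, 9.65e-05) and Rac1 (-0.49 ± 0.16, 0.0165), which encode GTPases of the actin skeleton, were lower on day 6, and the kinase gene Abl1 (-0.86 ± 0.24, 0.0055, all in edgeR) on day 0. The call of Rac1 was lost without WT day 6 replicate 1 (adjusted p = 0.117 in edgeR).

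Other adhesion molecules of myoblasts moved both ways. Of 6 tested, 0 were higher and 2 lower in KO on day 0 (median -0.47), and 3 were higher and 2 lower on day 6 (median 0.19). Among all genes, 6.46% were higher and 9.09% lower on day 0, and 14.5% and 14.4% on day 6. Vcam1, an immunoglobulin-type receptor for integrins that takes part in myoblast fusion, averaged 40.2 ± 25.4 CPM in KO and 113 ± 41.2 CPM in WT on day 0 (-1.53 ± 0.47, adjusted p = 8.9e-04 in edgeR). On day 6 it averaged 142 ± 22.3 CPM in KO and 13.6 ± 2.08 CPM in WT (3.31 ± 0.16, adjusted p = 6.5e-09 in edgeR). The change since day 0 differed between the lines by 4.84 ± 0.50 (adjusted p = 6.3e-08 in edgeR).

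Ncam1, the neural cell adhesion molecule, was lower on day 6 (143 ± 35.8 CPM in KO, 487 ± 72.4 CPM in WT, -1.84 ± 0.20, adjusted p = 8.5e-06 in edgeR). Jam3 was lower on day 6 (-1.08 ± 0.34, 0.0011) and Jam2 on day 0 (-1.69 ± 0.41, 0.0012, both in edgeR), both junctional adhesion molecules. Thus beside Cdh2 and Cdh13, which did not reach WT levels, Vcam1 was above and Ncam1 below WT on day 6.

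Of the other cadherin genes, 6 were tested. Cdh1 (E-cadherin), the epithelial classical cadherin, was low in both lines and was called lower in KO on every day: it had 0.123 ± 0.0393 CPM in KO and 1.05 ± 0.660 CPM in WT on day 0 (adjusted p = 0.0057), and 0.504 ± 0.693 CPM in KO and 3.45 ± 1.36 CPM in WT on day 6 (0.0046, both in edgeR). Cdh18, a type II cadherin, averaged 4.30 ± 2.73 CPM in KO and 17.3 ± 4.41 CPM in WT on day 6 (-2.12 ± 0.46, adjusted p = 1.3e-04 in edgeR). On day 0 it averaged 32.6 ± 9.62 CPM in KO and 22.8 ± 7.78 CPM in WT (adjusted p = 0.393 in edgeR). Its change since day 0 differed between the lines by -2.60 ± 0.59 on day 6 (adjusted p = 0.0015 in edgeR).

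Cdh23, a long cadherin known from the tip links of hair cells, was higher in KO on days 2, 4 and 6, by 1.69 ± 0.19, 1.31 ± 0.28 and 1.19 ± 0.28 (adjusted p = 0.0070, 0.0185 and 0.0362 in edgeR). It was above its day 0 level on day 6 in both lines (2.37 ± 0.75 in KO and 1.87 ± 0.45 in WT, adjusted p = 5.8e-05 and 8.2e-04 in edgeR). The call between the lines on day 6 was lost without replicate 4 or 5 of KO or 1, 4 or 5 of WT (adjusted p up to 0.117 in edgeR). Cdh24 fell in both lines, with log2 differences from day 0 of -2.75 ± 0.50 in KO and -3.08 ± 0.53 in WT on day 6 (adjusted p = 2.7e-05 and 4.1e-06 in edgeR), and was not called between the lines on any day. Cdh17 was at or below 1.30 CPM on average and was not called between the lines. Cdhr1, at or below 1.08 CPM, was called lower in KO on day 1 (adjusted p = 0.0433 in edgeR).

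The remaining lists held few calls. Of 5 tested factors of the epithelial-mesenchymal transition, which repress E-cadherin in epithelia, 0 were called on day 0 (median -0.17). On day 6, 1 was higher in KO (median 0.40), Twist2, at 4.19 ± 1.59 CPM in KO and 1.21 ± 1.21 CPM in WT (1.60 ± 0.73, adjusted p = 0.0050 in edgeR). The shares of all genes were 6.46% higher and 9.09% lower on day 0, and 14.5% and 14.4% on day 6. Of 7 tested genes of cadherin cleavage, 1 was higher in KO on day 0 and 1 on day 6 (against 6.46% and 14.5% of all genes). None was lower, against 9.09% and 14.4% of all genes, and the medians of the 7 were -0.27 and -0.24. The genes called were Psen2, a subunit of gamma-secretase, on day 0 (0.82 ± 0.27, adjusted p = 0.0092) and Mmp14, a membrane-bound metalloproteinase, on day 6 (1.68 ± 0.19, 3.3e-06, both in edgeR). The call of Psen2 was lost without KO day 0 replicate 1 or WT day 0 replicate 3 (adjusted p up to 0.0645 in edgeR).

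Of 6 tested delta protocadherins, 0 were higher and 1 lower in KO on day 0 (median -0.43), and 1 was higher and 2 lower on day 6 (median -0.64). Across all genes the shares were 6.46% higher and 9.09% lower on day 0, and 14.5% and 14.4% on day 6. Pcdh1 was lower in KO on both days, at -2.26 ± 0.24 and -1.19 ± 0.22 (adjusted p = 3.5e-07 and 9.6e-04 in edgeR). Pcdh20 was at 0 in all KO libraries and averaged 5.43 ± 4.27 CPM in WT on day 6 (adjusted p = 1.1e-04 in edgeR). Pcdh10 was at 0.474 ± 0.334 CPM in KO and 0.0381 ± 0.0762 CPM in WT on day 6 (adjusted p = 0.0432 in edgeR), a call lost without replicate 4 or 5 of KO or 1, 4 or 5 of WT (up to 0.140).

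Genes whose group means of log2 CPM ran most alike to each member were found by Pearson correlation over the 10 groups, a description without a test, since the groups share line and day. Cdh2 was matched by Mboat2 (r = 0.992), Itga6 (0.989), a laminin-binding integrin subunit, and Camk2d (0.983). Cdh13 was matched by Fam78a (0.989), Lemd1 (0.986) and Sept4 (0.985), and Cdh15 by Pdgfd (0.970), Fndc3b (0.966) and Pla1a (0.964). Cdh11 was matched by Gap43 (0.997), Bgn (0.997), the gene of the matrix proteoglycan biglycan, and Sorcs1 (0.994). Between members the closest pair was Cdh2 and Cdh13 (r = 0.895), and the other 5 pairs lay between 0.387 and 0.644.

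Because Cdh11 was near 0 in KO, the nearest tested genes on each side of it on chromosome 8 were also read. On the side of lower coordinates these were Impdh2-ps, Gm5913 and Got2, at 2600, 5203 and 6744 kb. That side was thus read only from 2600 kb on. Impdh2-ps and Gm5913 were not called on any day, and Got2 was called higher in KO on day 6 (0.64 ± 0.04, adjusted p = 0.0421 in edgeR). On the other side they were Gm8730, at 79.2 kb, Bean1 and Tk2. Bean1, 1385 kb away, had no count in KO after day 0 and averaged 0.0177 CPM in KO and 2.10 CPM in WT on day 0, and was called lower in KO on every day (adjusted p from 5.9e-06 to 0.0224 in edgeR). Tk2, which lies just beyond it, was not lower in KO: it averaged 18.5 CPM in KO and 15.9 CPM in WT on day 0 (adjusted p = 0.650 in edgeR), and 24.4 CPM in KO and 14.0 CPM in WT on day 6 (0.0156). Gm8730, the nearest, averaged 4.65 CPM in KO and 3.58 CPM in WT on day 0 and was not called on any day.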

How the data were processed

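Per the labels, stranded mRNA libraries (TruSeq) were read at 51 bp. The deposited table holds raw counts per gene, and the submitters' processing notes name FastQC 0.11.9, STAR 2.7.9, featureCounts 2.0.3, DESeq2, and the builds GRCm38 and GRCh38. The strand setting of the counting and the gene annotation are not given in the sources used here. Of values above 0, 64.4% were even, so mates of a pair may have been counted separately. The table has 1 column, of a KO day 2 library, that matched no sample and was not used. KO day 2 is the group with 3 libraries here.

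The members and gene lists were chosen with earlier results of these data known. All 29980 identifiers matched GENCODE mouse release 21 (GRCm38), which gave symbols, positions and exon lengths. No annotated gene shares an exon with a member. In edgeR 4.0.16 (R 4.3.3, limma 3.58.1), 39 libraries entered 1 fit with a mean per group, TMM factors (0.904 to 1.05), filterByExpr and robust quasi-likelihood F-tests, for 18 comparisons. The fit was tested on simulated data. CPM uses library totals, and SEs come from log2 CPM with a prior count of 2, as the root of the sum of each group's variance divided by its n. Ratio intervals are exact binomial at 95%.

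Named genes were the 5 members, up to 3 called genes of each of 10 lists with the smallest p on days 0 and 6, every tested cadherin, the 3 genes most like each member, and the 3 tested neighbours on each side of Cdh11. The plot of partners shows every tested gene of 4 of the lists. Alternatives were DESeq2 size factors, DESeq2 1.42.0, no filter, halved counts, a replicate block (shared, or within day or line), only the groups compared, other lengths, and leaving out single libraries or the 2 that stood apart. Leaving out single libraries from the pooled Cdh11 ratios was chosen after seeing the data. Pairing by replicate number was accepted where the deviations from the group means of every pair of libraries correlated above 0.1: the correlations were 0.134 to 0.339, 0.287 to 0.568, 0.133 to 0.393 and 0.126 to 0.506 for KO against WT on days 0, 1, 2 and 4. They also passed for KO days 1 and 2 and WT day 1 against day 0, and not for the other comparisons.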

Additional observations from a re-analysis of the deposited data

Results flagged for a closer look

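Single libraries stood apart from their group in Cdh11 level in 3 of its 8 groups of 4 libraries with a value above 0. They did so in none of the 9 groups each of Cdh2, Cdh13 and Cdh15. For normally spread values chance flags about 1 in 20. Low counts with zeros are not spread so, and the number for Cdh11 cannot be set against that rate. One of the 3 carries no information: KO day 1 replicate 5 held 0.135 CPM, from 3 counts, while the other KO libraries of that day were at 0, and beside zeros any count stands apart. KO day 4 replicate 3 held 3.64 CPM, against 0 to 0.156 CPM in the others, which also lay at or near 0. WT day 2 replicate 4 held 46.1 CPM, against 9.53 to 15.1 CPM in the others. For these libraries no explanation was tested.

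The change since day 0 differed between KO and WT in 5 tests of single members. For Cdh2 the difference of changes was -1.91 on day 4 and -1.69 on day 6, and for Cdh13 it was -1.73 on day 4 and -1.76 on day 6. For Cdh11 it was 5.10 on day 4, and 0.95 with KO day 4 replicate 3 left out, when it was no longer called in edgeR (adjusted p = 0.881).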

How the results depend on the processing

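Cdh2 and Cdh13 were lower in KO on days 4 and 6, Cdh15 on days 0 and 6, and Cdh11 on days 0, 1, 2 and 6 in every setting tried that gave an adjusted p. Other calls of members moved, beside those given above. In KO against WT, Cdh11 on day 4 was lost with no filter, without the pair of libraries that stood apart, with only the groups compared, or in DESeq2 (adjusted p 0.0505 to 0.190), and Cdh15 on day 1 with no filter (0.0679) or only the groups compared (0.163). On day 2 DESeq2 also called Cdh13 and Cdh15 (0.0279 and 0.0363), and DESeq2 size factors and halved counts Cdh13 (0.0476 and 0.0417). Against day 0, with only the groups compared, Cdh15 was lost in KO on day 1 (0.140) and in WT on days 2 and 4 (0.0521 and 0.120), and Cdh2 was called in KO on day 6 (0.0399). Cdh15 in WT on day 4 was lost with no filter, halved counts and both blocks (0.0531 to 0.0576). In DESeq2, Cdh11 in WT on day 4 was lost (0.0673) and Cdh15 in WT on day 1 gained (0.0466). In genotype by day, Cdh11 was lost on day 4 with no filter (0.0749), and over the 4 days with no filter (0.0845), halved counts (0.0646) or without that pair (0.0501). Groups hold 3 or 4 libraries, Cdh11 in KO holds few counts, and the lines differ at day 0 already, which limits what the counts can show. The causes of the shifts below were not tested.

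With replicate number as a block within day or line, 4 members were called in KO against WT on day 2 and 2 in KO day 4 against day 0 (2 also with a block shared over groups). Genes called became 3996 and 3799 for KO against WT on days 0 and 1, 1975 and 1158 for day 1 against day 0 in KO and WT, 473, 2359 and 2968 for genotype by day on days 2, 4 and 6, and 2238 over the 4 days together. The shared block gave 1864 and 1070 genes for day 1 against day 0 in KO and WT, and 175 for genotype by day on day 2. With the block within day, Cdh2 on day 1 turned to -0.089 in genotype by day, and Cdh11 was not called on day 4 (4.47, adjusted p = 0.0775 in edgeR) or over the 4 days (0.176). For KO against WT on day 6 and for the other later days against day 0 the numbers did not pair the libraries. The block ended or made no other call of a member in KO against WT.

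Fitting only the groups compared gave 1421 and 1372 genes for KO against WT on days 0 and 1, 17 and 314 for day 1 against day 0 in KO and WT, and 1 member for KO against WT on day 1, 0 for KO day 1, 1 for KO day 6 and 1 for WT day 2. With DESeq2, 4 members were called in KO against WT on day 2 and 1 in WT on day 1, where 977 genes were called. It also called 2, 190 and 1611 genes for genotype by day on day 1, day 2 and the 4 days together, and Cdh11 on day 6 turned to 0.059. Without the low-count filter, 1 member was called in KO against WT on day 1. In WT on day 6 the share of Cdh15 was 52.6% with the longest transcript as length and 43.7% without division by length. In the same settings Cdh13 had 32.6% and 38.0%, against 17.9% by exon length.

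Leaving out single libraries, or the pair that stood apart, gave 1393 to 3657 genes for KO against WT on day 0 and 1508 to 2955 on day 2, with 1 to 3 members on day 1 and 1 to 4 on day 2. For KO against its day 0 it gave 326 to 3372 genes on day 1 and 2123 to 4665 on day 2, with 0 to 1 members on day 1 and 0 to 2 on day 4. In WT it gave 115 to 807 genes and 0 to 1 members on day 1, and 1 to 2 members on day 2. For genotype by day it gave 0 to 1, 21 to 176, 769 to 1608 and 1037 to 2368 genes on days 1, 2, 4 and 6. Differences that were not called changed sign: Cdh13 in KO on day 1 (-0.42 to 0.39), day 2 (-0.088 to 0.60) and day 6 (-0.023 to 0.47), Cdh11 in KO on day 4 (-1.81 to 3.45), and in WT on day 1 Cdh2 (-0.15 to 0.28) and Cdh11 (-0.52 to 0.10). In genotype by day so did Cdh2 (-0.081 to 0.63) and Cdh13 (-0.64 to 0.17) on day 1, and Cdh15 on days 4 (-0.10 to 0.37) and 6 (-0.065 to 0.33).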
